A study of Saccharomyces cerevisiae with 14 samples.

Results

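The genes described are the 9 yeast genes for the late steps of ergosterol synthesis that use no molecular oxygen: ERG9, ERG7, ERG24, ERG26, ERG27, ERG28, ERG6, ERG2 and ERG4. They were followed through a brewery fermentation by lager yeast. Each was represented by 1 probe set that the array's annotation assigns to that gene alone, out of 5449 Saccharomyces cerevisiae genes on the array and 5298 genes tested, and all 9 were above background on all 14 arrays, so the filter on dim probe sets removed none. RNA of strain CB11, with no genetic change or treatment named, was taken from 1 commercial vessel of 3275 hL at 8, 30, 60, 80 and 102 h, counted from pitching, when the yeast is added. Each of 8, 60, 80 and 102 h had 3 arrays and 30 h had 2. The wort entered the vessel with 25 mg of dissolved oxygen per litre, and the first sample came 5 h after the last oxygenated wort was added. No later oxygen level is given in the sources used here. Lager yeasts are hybrids that carry a genome of a related species beside that of S. cerevisiae, so a probe set may read transcripts of both. The yeast had already been through earlier fermentations, so the course is that of a re-used brewing yeast and not of a fresh laboratory culture.

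Ergosterol is the main sterol of the yeast plasma membrane, where it sets fluidity and helps cells to withstand ethanol. The pathway starts with the mevalonate steps, is joined by squalene synthase (Erg9), and then alternates between enzymes that consume molecular oxygen (Erg1, Erg11, Erg25, Erg3 and Erg5) and enzymes that do not. The oxygen-independent enzymes close the squalene epoxide ring system (Erg7), reduce double bonds (Erg24 and Erg4), take part in removing the C-4 methyl groups together with Erg25 (Erg26, Erg27 and the scaffold Erg28), add the side-chain methyl group (Erg6) and shift a ring double bond (Erg2). In brewing, cells make sterol while wort oxygen lasts and later divide on what they have stored. Zinc cluster factors Upc2 and Ecm22 are known to activate many of these genes when sterol is low.

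Values are normalised signals on a linear scale, read per probe set, and log2 changes carry their standard error (SE) from 1 linear model of all 14 arrays. A gene was called when its Benjamini-Hochberg adjusted p over all 5338 probe sets tested was under 0.05. Since signals of different probe sets are not on 1 scale, no gene's level is set against another's. All samples came from 1 vessel, and no label calls the replicates separate cultures. The p-values thus rest on the spread among these arrays, part of which may be technical. Signals are relative to the whole of each array, and in such bulk samples fewer cells of a kind and less RNA per cell cannot be told apart. The deposited median signal per array ran from 22.6 to 38.7. On 3 arrays the 5′ to 3′ signal ratio of 4 yeast control transcripts, a measure of RNA integrity, was low: its mean log2 value was -3.63 on 8 h replicate 1, -4.32 on 60 h replicate 1 and -1.40 on 60 h replicate 2, against -0.70 to -0.28 on the other 11. These are called the low-ratio arrays, and counts that leave them out stand beside those of all 14. At 60 h they rest on replicate 3 alone.

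Of the 9 genes, 5 changed over the 5 times by the moderated F-test: ERG4 (adjusted p = 0.0020), ERG6 (0.0075), ERG7 (0.012), ERG26 (0.012) and ERG2 (0.019). The other 4 did not pass: ERG27 (0.070), ERG24 (0.21), ERG9 (0.25) and ERG28 (0.48). Over all probe sets 68.5% passed, so the share of 5 in 9 was not above the background. With the low-ratio arrays left out 8 of the 9 passed, all but ERG9 (adjusted p = 0.29), where 81.8% of all probe sets did. The courses were shallow. The highest of the 5 time means stood 1.18-fold (ERG9) to 1.97-fold (ERG26) above the lowest, with a median of 1.45-fold for the 9 genes and 1.82-fold for all probe sets tested. The highest mean was at 80 h for 5 genes (ERG7, ERG26, ERG27, ERG6 and ERG4), at 60 h for ERG9 and ERG24, at 30 h for ERG28 and at 102 h for ERG2. The lowest was at 8 h for 6 of the 9.

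**Figure D1:**
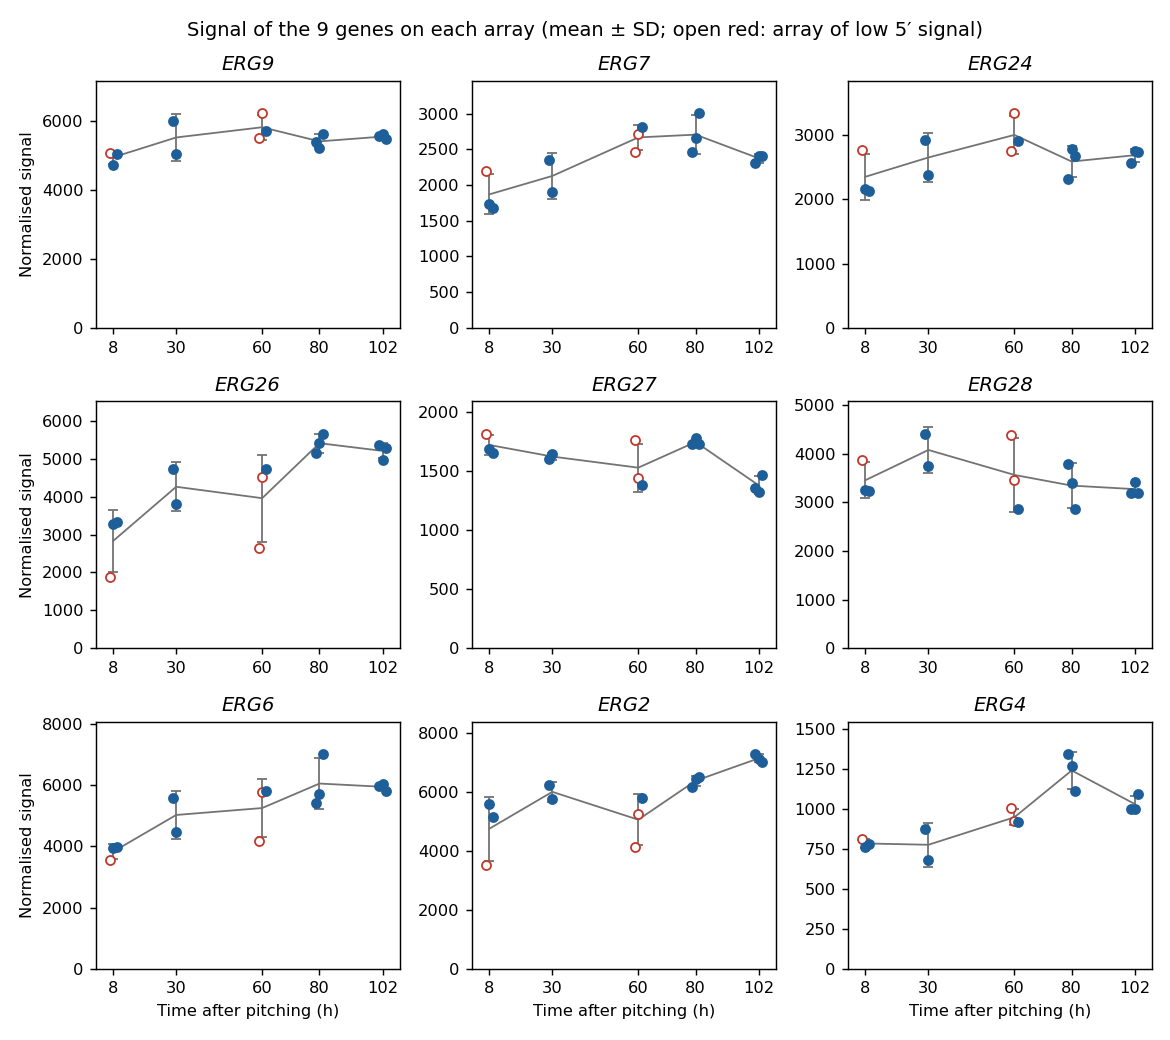
Normalised signal (linear, from 0) of each of the 9 genes against time after pitching in hours. Points are arrays, grey lines join the means with SD bars (n = 3, or 2 at 30 h), and open red points mark the low-ratio arrays. ERG26 and ERG4 have every 80 h and 102 h array above every 8 h and 30 h array, while ERG9, ERG24, ERG27 and ERG28 did not pass the F-test.

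At the entry to the sterol branch, ERG9, squalene synthase, which commits farnesyl diphosphate to sterols, had the flattest course. Its signals were 5067, 4728 and 5047 at 8 h, 6008 and 5036 at 30 h, 5519.6, 6225 and 5711 at 60 h, 5390.0, 5217 and 5619.8 at 80 h and 5571, 5609 and 5465 at 102 h. All 3 arrays of 102 h lay above those of 8 h, by a margin close to the spread within a time. The change at 102 h against 8 h was 0.17 ± 0.09 on the log2 scale (limma adjusted p = 0.15), with a 95% interval from -0.04 to 0.37. ERG7, lanosterol synthase, folds squalene epoxide into the first sterol. Signals of ERG7 were 2193, 1731 and 1684 at 8 h, 2352 and 1903 at 30 h, 2469, 2714 and 2816 at 60 h, 2458, 2655 and 3005 at 80 h and 2302, 2413 and 2408 at 102 h. All arrays from 60 h on stood above those of 8 h, and 30 h replicate 1 lay among the later ones. ERG7 rose by 0.36 ± 0.13 at 102 h against 8 h (limma adjusted p = 0.037). That call ended on the authors' scale as deposited (0.31, adjusted p = 0.079) and when any of 6 single arrays was left out (replicates 2 and 3 of 8 h, replicate 2 of 80 h and each one of 102 h).

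ERG24, the sterol C-14 reductase, acts straight after the oxygen-requiring demethylase Erg11. Signals of ERG24 ranged from 2126 to 2759.95 at 8 h, 2379.8 to 2916 at 30 h, 2755 to 3335 at 60 h, 2311 to 2773 at 80 h and 2564 to 2747 at 102 h. Each time overlapped with the next, and 8 h replicate 1 was the highest of its time. The change at 102 h against 8 h was 0.20 ± 0.13 (adjusted p = 0.22, 95% interval from -0.09 to 0.49). In the fit without the low-ratio arrays it rose by 0.32 ± 0.10 (adjusted p = 0.016).

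Of the 3 genes whose products work with Erg25 in removing the C-4 methyl groups, ERG26 followed a course apart from the other two, as the pair tests further on show. ERG26 encodes the C-3 sterol dehydrogenase that carries out the decarboxylation. Its signals were 1882, 3276 and 3335 at 8 h, 4715 and 3801 at 30 h, 2639.9, 4503 and 4728 at 60 h, 5151, 5409 and 5657 at 80 h and 5346, 4976 and 5288 at 102 h. Every array of 80 h and 102 h was above every array of 8 h, 30 h and 60 h, and the lowest values were those of 8 h replicate 1 and 60 h replicate 1, the arrays of lowest ratio. ERG26 rose by 0.92 ± 0.23 at 102 h against 8 h, or 1.90-fold (limma adjusted p = 0.0050). In the fit without the low-ratio arrays the rise was 0.65 ± 0.10 (adjusted p = 8.0e-05).

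ERG27 encodes the 3-keto reductase that follows, a protein also known to stabilise Erg7. Its signals were 1816, 1689.7 and 1656 at 8 h, 1602 and 1643 at 30 h, 1761, 1444 and 1379.6 at 60 h, 1731, 1779 and 1728 at 80 h and 1355, 1319 and 1465 at 102 h. The 102 h arrays were below all arrays of 8 h, 30 h and 80 h and overlapped with 60 h. ERG27 fell by 0.32 ± 0.11 at 102 h against 8 h (limma adjusted p = 0.030, or 0.0076 without the low-ratio arrays). The call ended when 8 h replicate 1 or 2 or 102 h replicate 1 or 2 alone was left out, at adjusted p of up to 0.098. At 102 h against 80 h ERG27 stood at -0.34 ± 0.11, just outside the threshold (adjusted p = 0.054), and it fell by the same 0.34 without the low-ratio arrays (adjusted p = 0.0021).

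ERG28 encodes the endoplasmic reticulum scaffold that holds the demethylation enzymes together. Its signals were 3880.5, 3258 and 3227 at 8 h, 4412 and 3741 at 30 h, 4377, 3454 and 2861 at 60 h, 3779, 3388 and 2865 at 80 h and 3202, 3421 and 3193 at 102 h. The ranges of any 2 times overlapped except those of 30 h and 102 h, and the spread at 60 h and 80 h was wide. No comparison of all 14 arrays on the normalised scale called it: 102 h against 8 h gave -0.07 ± 0.15 (adjusted p = 0.71, 95% interval from -0.41 to 0.26). When the low-ratio arrays were left out it was called over the 5 times (adjusted p = 0.048) and was lower at 60 h than at 30 h by 0.51 (log2 change of -0.51, adjusted p = 0.022), a value that rests on 60 h replicate 3.

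For comparison, ERG25, the oxygen-requiring methyl oxidase of the same complex, gave 4282, 5016 and 4871 at 8 h, 7959.9 and 5903 at 30 h, 8114, 9213 and 8904 at 60 h, 9088, 8983 and 9088 at 80 h and 9429, 9754 and 10014 at 102 h. It rose by 1.05 ± 0.11 at 102 h against 8 h (limma adjusted p = 1.1e-05). So within this complex 2 genes rose, ERG28 did not pass and ERG27 fell. The differences of ERG25 from its partners were not tested.

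**Figure D2:**
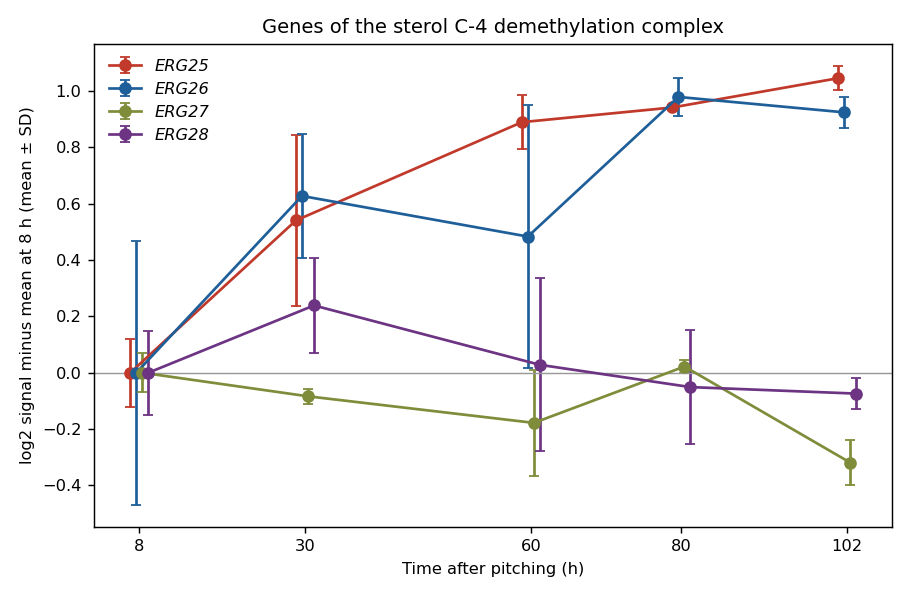
Log2 signal minus the gene's mean at 8 h, against time after pitching in hours, for the 4 genes of the C-4 demethylation complex (points are means, bars are SD, n = 3 or 2 arrays, points shifted sideways for clarity). ERG25 and ERG26 end 1.05 and 0.92 above their 8 h means, and ERG28 and ERG27 end at -0.07 and -0.32.

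Of the 5 genes that rose at 102 h against 8 h, 3 encode the last steps of the pathway. ERG6, the C-24 methyltransferase, adds the side-chain methyl group that sets fungal sterols apart from cholesterol. Signals of ERG6 were 3549.8, 3938 and 3989 at 8 h, 5571 and 4476 at 30 h, 4169, 5760.3 and 5819.8 at 60 h, 5425, 5711 and 7011 at 80 h and 5975, 6035 and 5819.8 at 102 h. All arrays from 30 h on were above all 8 h arrays. The 60 h array of lowest ratio was the lowest of these later ones. ERG6 rose by 0.64 ± 0.14 at 102 h against 8 h, or 1.56-fold (limma adjusted p = 0.0026).

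ERG2, the C-8 sterol isomerase, gave 3513, 5571 and 5142 at 8 h, 6225 and 5760.3 at 30 h, 4113, 5247 and 5786 at 60 h, 6173, 6418 and 6512 at 80 h and 7271, 7099 and 7011 at 102 h. The 102 h arrays were above all others, and 8 h replicate 1 and 60 h replicate 1 were again the lowest. ERG2 rose by 0.62 ± 0.16 at 102 h against 8 h (limma adjusted p = 0.0061), and by 0.41 ± 0.08 without the low-ratio arrays (adjusted p = 5.2e-04).

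ERG4, the C-24(28) reductase that finishes ergosterol, had a peak at 80 h. Its signals were 816, 760.2 and 779 at 8 h, 873 and 680.4 at 30 h, 1008, 923 and 916 at 60 h, 1345, 1269 and 1113 at 80 h and 1002, 1001 and 1094 at 102 h. All arrays of 80 h were above all arrays of the other times, and those of 60 h and 102 h were above those of 8 h and 30 h. ERG4 was the only one of the 9 genes called at 80 h against 60 h, where it rose by 0.39 ± 0.12 (limma adjusted p = 0.042). That call was close to the threshold: it ended when any of 9 single arrays was left out (replicates 2 and 3 of 8 h and of 60 h, replicates 1 and 2 of 80 h and each one of 102 h, highest adjusted p = 0.15) and with arrays centred on their S. cerevisiae medians (0.29, adjusted p = 0.13). At 102 h against 8 h ERG4 rose by 0.39 ± 0.12 (adjusted p = 0.017), but the call ended on the authors' scale as deposited (0.24, adjusted p = 0.13) and when replicate 2 of 8 h or replicate 3 of 102 h was left out (adjusted p = 0.053 and 0.068).

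Counted by comparison, few of the 9 genes were called between neighbouring times. At 30 h against 8 h limma called 0 of the 9, where 0.112% of probe sets rose and 0.131% fell (0.244% in all). The median change was 0.19 for the 9 and -0.04 for all tested, and 2 genes, ERG26 and ERG6, had an unadjusted p under 0.05, as did 16.5% of all tested. At 60 h against 30 h limma again called 0, where 16.2% rose and 11.7% fell (28% in all), with medians of 0.06 and 0.05, and ERG7 and ERG4 had an unadjusted p under 0.05, a share below the 40.6% of all tested. At 30 h against 8 h the changes ran from -0.08 (ERG27) to 0.63 (ERG26), and ERG26 stood at 0.36 without 8 h replicate 1. Without the low-ratio arrays 0 of the 9 were called there, where 4.03% of probe sets rose and 4.1% fell. At 80 h against 60 h 1 rose and none fell, where 9.42% of probe sets rose and 10.9% fell (20.3% in all, medians of 0.20 and -0.04). At 102 h against 80 h limma called 0, where 7.59% rose and 8.36% fell (15.9% in all, medians of -0.02 and -0.04), and ERG27 alone had an unadjusted p under 0.05, against 31.2% of all tested. With the low-ratio arrays left out, ERG7 rose and ERG28 fell at 60 h against 30 h, where 17.8% of all probe sets rose and 15.6% fell. ERG27 and ERG4 then rose at 80 h against 60 h, where 11.4% rose and 11.3% fell, and ERG27 fell at 102 h against 80 h, where 19.7% rose and 23.1% fell. The first 2 of these comparisons rest on 60 h replicate 3, and the counts lie near those over all probe sets.

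Over the whole fermentation, 5 of the 9 rose at 102 h against 8 h (ERG26, ERG6, ERG2, ERG4 and ERG7) and 1 fell (ERG27), where 21.6% of all probe sets rose and 28.6% fell (50.2% in all). The median change was 0.36 for the 9 genes and -0.09 for all tested. In the fit without the low-ratio arrays 6 rose, with ERG24 added, and 1 fell, where 28.6% of all probe sets rose and 33.7% fell. To compare early with late arrays without the 60 h samples, the mean of 80 h and 102 h was set against the mean of 8 h and 30 h. The same 5 genes rose and none fell, where 25.3% and 29.4% of probe sets did (54.6% in all). ERG26 rose by 0.64 ± 0.17 in this comparison (limma adjusted p = 0.0071), ERG4 by 0.54 ± 0.09 (adjusted p = 3.0e-04) and ERG6 by 0.45 ± 0.11 (adjusted p = 0.0031). ERG7 rose by 0.35 ± 0.10 (limma adjusted p = 0.0082) and ERG2 by 0.35 ± 0.12 (adjusted p = 0.023). The calls of ERG7 and ERG2 ended when 30 h replicate 2 was left out, which leaves only replicate 1 at that time. Without the low-ratio arrays the same 5 rose and none fell, where 32.7% and 36.1% of all probe sets did. The rises were then 0.55 for ERG4, 0.50 for ERG26, 0.43 for ERG6, 0.41 for ERG7 and 0.25 for ERG2, so ERG26 no longer rose most. The late arrays did not overlap with the early ones, on the higher side, for 2 of the 9 genes, ERG26 and ERG4, as for 16.3% of all probe sets (17.3% on the lower side). With arrays centred on their S. cerevisiae medians, ERG26 and ERG4 were still called higher, ERG6 (adjusted p = 0.056), ERG7 (0.089) and ERG2 (0.17) were not, and ERG27 (-0.24, adjusted p = 0.028) and ERG28 (-0.37, adjusted p = 0.049) were called lower.

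**Figure D3:**
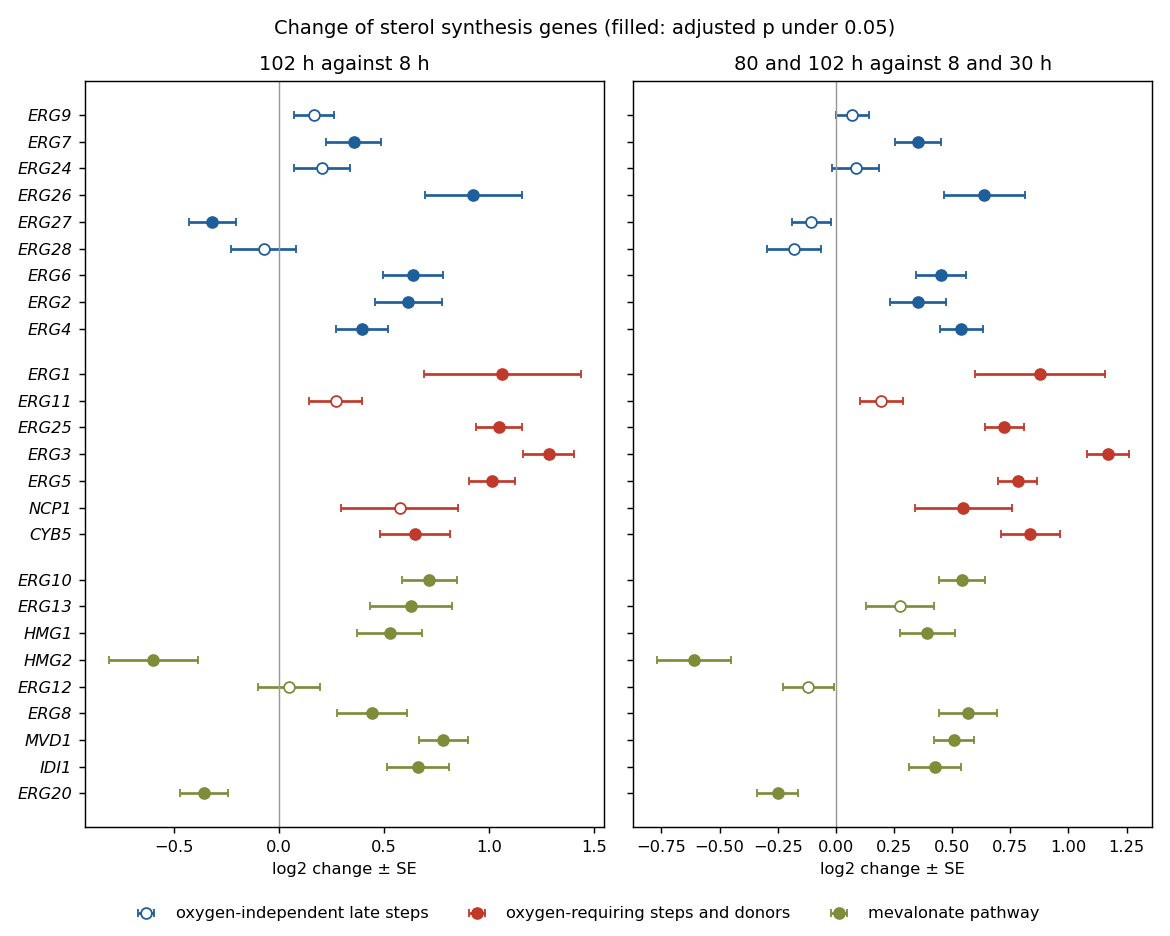
Log2 change with SE bars at 102 h against 8 h (left) and at 80 and 102 h against 8 and 30 h (right) for the 9 oxygen-independent genes (blue), the oxygen-requiring steps with their electron donors (red) and the mevalonate pathway (green). Filled points passed limma at adjusted p under 0.05. The blue points run from -0.32 (ERG27) to 0.92 (ERG26) on the left, and ERG3, in red, is the highest point of both panels, at 1.28 and 1.17.

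Since some calls changed with the scaling, the genes were also compared with each other within each array. A single scale factor per array cancels there, but the quantile normalization does not, so the authors' scale was also tried. For each of the 36 pairs, the log2 difference between the 2 genes was set late (6 arrays of 80 h and 102 h) against early (5 arrays of 8 h and 30 h) with a two-sided exact permutation test, whose smallest possible p is 0.0022, adjusted over the 36 pairs. The arrays of a time share their sample's state, so the test treats them as more independent than they may be. Of the 36 pairs 22 differed, 18 did so without 8 h replicate 1 and 19 on the authors' scale as deposited, and 15 passed in all of these settings and with each of the 11 arrays left out in turn. Pairs of other genes were not tested. Since 54.6% of all probe sets were called late against early, the count of pairs is a description of these 9 genes and is not read as particular to them.

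**Figure D4:**
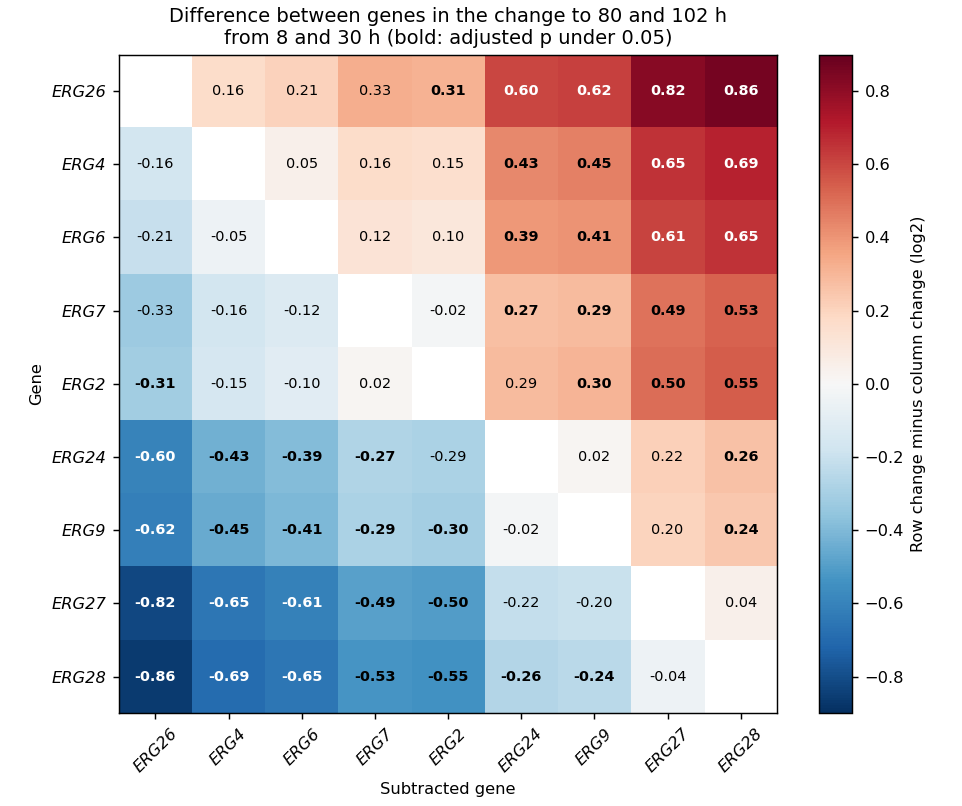
Difference between the change of the row gene and that of the column gene, late (80 and 102 h) minus early (8 and 30 h), on the log2 scale. Red means that the row gene gained, blue that it lost, and bold values passed the exact permutation test at adjusted p under 0.05 over 36 pairs. The largest value is 0.86, for ERG26 against ERG28.

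With 8 h replicate 1 included, the widest gaps lay inside the C-4 demethylation complex. ERG26 gained 0.86 on ERG28 (exact permutation adjusted p = 0.0087) and 0.82 on ERG27 (adjusted p = 0.0087), and neither gap overlapped between late and early arrays. Without 8 h replicate 1 the gaps were 0.64 and 0.59, and both passed in every setting tried. ERG26 minus ERG4 was then -0.050, so the gaps of ERG4 to ERG28 and ERG27 became the wider ones, and the ranking rests on that array. The pair of ERG27 and ERG28 did not pass (0.04, adjusted p = 0.81). ERG4 gained 0.69 on ERG28 and 0.65 on ERG27, and ERG6 gained 0.65 and 0.61 on the same genes (exact permutation adjusted p of 0.0087 to 0.023). ERG26 also gained 0.31 on ERG2 (exact permutation adjusted p = 0.029, but 0.063 without 8 h replicate 1). That call ended without any of 6 single arrays (8 h replicates 1 and 3, 30 h replicate 2 and each one of 80 h). It also ended on the authors' scale as deposited (0.26, adjusted p = 0.099). The pair of ERG9 and ERG24 did not pass either (-0.02, adjusted p = 0.83), and ERG7 gained on both, by 0.29 and 0.27 (adjusted p = 0.026 and 0.016). The call against ERG9 ended without 8 h replicate 3 (adjusted p = 0.051) or 30 h replicate 2 (0.054).

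The 9 genes differed in how they read on the low-ratio arrays. On 8 h replicate 1 ERG26 was lower than the mean of replicates 2 and 3 (log2 difference of -0.81), and so was ERG2 (-0.61), against a median of 0.12 over all probe sets tested. ERG7 and ERG24 stood at 0.36 and 0.37 there. On 60 h replicate 1, against replicate 3, the differences were -0.84 for ERG26, -0.49 for ERG2, -0.48 for ERG6 and 0.61 for ERG28, with a median of 0.14 over all. ERG26 and ERG2 were thus the lowest of the 9 genes on both arrays. As given above, the rises of ERG26, ERG2 and ERG6 at 102 h against 8 h also passed without these arrays, ERG6 by 0.58 ± 0.12 (limma adjusted p = 8.1e-04).

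**Figure D5:**
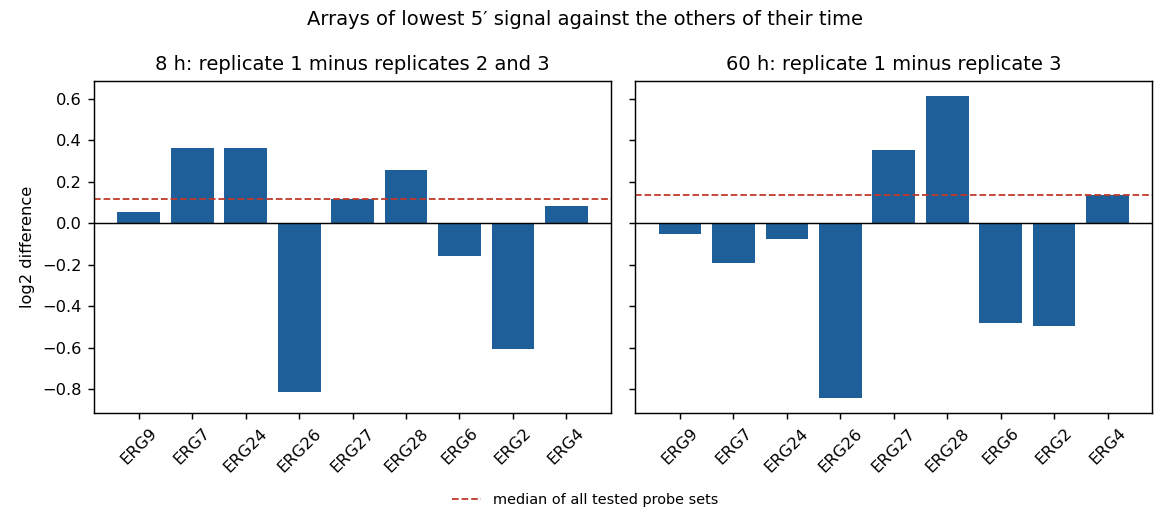
Log2 difference between the array of lowest ratio and the other arrays of its time for the 9 genes, at 8 h (replicate 1 minus the mean of replicates 2 and 3) and at 60 h (replicate 1 minus replicate 3). The dashed line is the median of all probe sets tested, 0.12 and 0.14. ERG26 is the lowest in both panels, at -0.81 and -0.84.

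Around these genes, the rest of the pathway was counted from lists of known members. At 102 h against 8 h 21.6% of all probe sets rose and 28.6% fell, or 28.6% and 33.7% without the low-ratio arrays. Of the 7 genes for oxygen-requiring steps and their electron donors, 5 rose and none fell at 102 h against 8 h, with a median change of 1.01. The largest rises on all 14 arrays were those of ERG3, the C-5 desaturase (1.28 ± 0.12), ERG1, squalene epoxidase (1.06 ± 0.37), ERG25 (1.05 ± 0.11) and ERG5, the C-22 desaturase (1.01 ± 0.11), with limma adjusted p from 4.9e-06 to 0.030. ERG1 had a signal of 991 on 8 h replicate 1, against 2463 and 2443 on the other 8 h arrays, and its rise was 0.63 without the low-ratio arrays, below that of CYB5, an electron donor (0.73). The call of ERG1 ended on the authors' scale as deposited (adjusted p = 0.051). Of the 7 genes 6 rose when the low-ratio arrays were left out. The median of the oxygen-independent genes, 0.36, was below that of the oxygen-requiring ones. The medians were 0.41 and 0.73 without the low-ratio arrays, a smaller gap, and the difference between the lists was not tested.

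Of the 9 mevalonate pathway genes, 6 rose and 2 fell at 102 h against 8 h, with a median of 0.53. Over all probe sets 21.6% rose and 28.6% fell. The counts of the list were the same without the low-ratio arrays. MVD1, mevalonate diphosphate decarboxylase, rose by 0.78 ± 0.12, ERG10, acetoacetyl-CoA thiolase, by 0.71 ± 0.13, IDI1, the isopentenyl diphosphate isomerase, by 0.66 ± 0.15 and ERG13, HMG-CoA synthase, by 0.63 ± 0.20 (limma adjusted p from 1.4e-04 to 0.017). ERG13 stood at 0.41 without the low-ratio arrays, below ERG8, phosphomevalonate kinase (0.60), and HMG1, the other HMG-CoA reductase (0.43). The 2 that fell, named after their values were seen, were HMG2, an HMG-CoA reductase isozyme (-0.60 ± 0.21, adjusted p = 0.031), and ERG20, farnesyl diphosphate synthase (-0.36 ± 0.12, adjusted p = 0.020). ERG20 supplies the substrate of Erg9, and its call ended with centred arrays (-0.28, adjusted p = 0.098).

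Of the 7 sterol regulators, 3 rose and 1 fell at 102 h against 8 h (4 and 1 without the low-ratio arrays). Over all probe sets 21.6% rose and 28.6% fell, or 28.6% and 33.7% without those arrays. UPC2, the activator named above, rose by 1.54 ± 0.25 (limma adjusted p = 2.8e-04), and its paralogue ECM22 fell by 0.72 ± 0.19 (adjusted p = 0.0061). On 8 h replicate 1 ECM22 read 0.76 (log2) above the mean of the other 8 h arrays, and it fell by 0.47 without the low-ratio arrays (adjusted p = 0.0025). HAP1, a heme-dependent activator, rose by 1.49 ± 0.15 and ROX1, the heme-induced repressor of hypoxic genes, by 1.78 ± 0.13. UPC2 signals were 398, 428 and 370.2 at 80 h and 444, 501 and 482.5 at 102 h, against 138, 183 and 173 at 8 h. All arrays of both late times were thus above those of 8 h.

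Of the 7 genes for sterol uptake, esterification and ester breakdown, 4 rose and 1 fell at 102 h against 8 h. Over all probe sets 21.6% rose and 28.6% fell. The counts of the list were the same without the low-ratio arrays. YEH1, a steryl ester hydrolase, rose by 2.87 ± 0.18, PDR11 and AUS1, the transporters for sterol import, by 2.79 ± 0.17 and 1.29 ± 0.14, and ARE2, the main sterol acyltransferase, by 0.73 ± 0.14 (limma adjusted p from 2.1e-07 to 0.0010). The gene that fell, named after its value was seen, was TGL1, another steryl ester hydrolase (-0.58 ± 0.11, adjusted p = 8.7e-04).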

How the data were processed

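Signals came from single-colour Affymetrix Yeast 2.0 arrays with biotin-labelled RNA, 1 per sample. The authors deposited a linear signal intensity for each probe set, made with GCOS 5.0 per the submitters' processing notes, with no scaling target stated there. Array medians spanned 0.78 on the log2 scale, so signals were quantile normalized. The background threshold (22.1) was the 95th percentile of the dimmer part of all probe sets, split at the median, and their median (5.58) the floor. Testing required 2 arrays of one time above this threshold (5338 of 5498 probe sets). Probe annotation was updated by gene number to assembly R64, for names only. limma 3.58.1 (R 4.3.3) fitted the 5 times with an intensity trend. Up to 4 genes of each other list were named, by size of change among those called, with exceptions stated. The 9 genes and all lists were chosen with earlier results of these data known. The steps were tested on simulated data. Chip lot and scan date cells were empty, so no such batch could be examined. Promoter and protein sequences were not used here, so the planned motif search was not run.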

Additional observations from a re-analysis of the deposited data

How the results depend on the processing

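Of 2599 values recomputed under 28 other settings, 2379 were taken as the same, 85 lost a call, 33 gained one, 45 counts moved and 57 changed sign. All 57 were uncalled both ways. A change was the same if it kept its direction and side of the threshold. A count was the same if it differed by at most 1.5 times, and it moved if it differed by more or went to or from 0. By this rule the floors, the stricter filter, the other background, the omitted trend and averaging a gene's probe sets moved no count of called genes. Most same-numbered arrays were not alike in their deviations from the time means. Of 26 such pairs 4 had a correlation over 0.1, with a median of 0.01 and a highest value of 0.74. A replicate block moved no count by the same rule, with 5 higher late against early. The planned block for chip lot or scan date was not run. The cause of the shifts below was not tested.

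On the authors' scale as deposited the median over all probe sets shifted by 0.29 at 80 h against 60 h and by -0.27 at 102 h against 80 h. There 2 genes were higher at 80 h against 60 h, as were 21.1% of all probe sets. At 102 h against 80 h 2 were lower, as were 26.7%, and at 102 h against 8 h 3 were higher, as were 16.6%. Calls higher were 86.5% and 7.9% of all calls in the first 2, against 46.4% and 47.6%. ERG28 stood at 0.039 at 80 h against 60 h, and ERG9 and ERG24 at -0.057 and -0.098 at 102 h against 80 h.

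With centred arrays 0 were higher and 1 lower (ERG9, -0.43, limma adjusted p = 0.043) at 80 h against 60 h. Of all probe sets 8.73% were higher and 11.9% lower there. Late against early 2 were higher and 2 lower, where 22.4% and 31.4% of all probe sets were. Signs changed at 30 h against 8 h for ERG27 (0.097) and ERG4 (0.0022), and at 60 h against 30 h for ERG9 (-0.017), ERG24 (-0.019) and ERG6 (-0.098). They changed at 80 h against 60 h for ERG7 (-0.13) and ERG6 (-0.097), and at 102 h against 80 h for ERG7 (0.020), ERG26 (0.18), ERG28 (0.17) and ERG6 (0.28). Late against early they changed for ERG9 (-0.093) and ERG24 (-0.049).

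Without a filter 1 was lower at 102 h against 80 h, as were 450 of all probe sets. Fits on the times compared alone gave 0 higher at 80 h against 60 h, where 276 of all 5338 probe sets were. At 102 h against 80 h such fits gave 1 higher and 2 lower, where 1201 and 1387 of all were. At adjusted p under 0.01, 2 changed over time, as did 2593 of all. At that threshold 0 were higher at 80 h against 60 h, where 197 of all were. There were 3 higher and 0 lower at 102 h against 8 h, where 805 and 1082 of all were.

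Without the low-ratio arrays 8 changed over time, 1 was higher and 1 lower at 60 h against 30 h, 2 were higher at 80 h against 60 h and 1 lower at 102 h against 80 h. Signs changed for ERG4 at 30 h against 8 h (0.0019), ERG26 at 60 h against 30 h (0.16), ERG7 and ERG28 at 80 h against 60 h (-0.063 and 0.22) and ERG28 at 102 h against 8 h (0.012). They also changed for the pairs ERG7 minus ERG2 (0.16) and ERG26 minus ERG4 (-0.050). With the ratio as a covariate 1 was lower at 60 h against 30 h, 2 higher at 80 h against 60 h and 1 lower at 102 h against 80 h. Of all 5338 probe sets 957, 755 and 1078 were called in these same directions with the covariate. ERG4 then stood at 0.0080 at 30 h against 8 h and ERG26 at 0.24 at 60 h against 30 h, and ERG28 at 0.11 at 80 h against 60 h, 0.0046 at 102 h against 80 h and 0.077 at 102 h against 8 h.

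Leaving out 1 array gave 4 to 6 genes changed over time, 0 to 1 higher at 60 h against 30 h (1 without 30 h replicate 1), and 0 to 1 lower at 102 h against 80 h (1 without 8 h replicate 1 or 60 h replicate 1 or 3). At 80 h against 60 h it gave 0 to 2 higher, with 2 without 8 h replicate 1 or 60 h replicate 1, and 0 without any of the 9 arrays named for ERG4. At 102 h against 8 h it gave 3 to 5 higher (3 without 8 h replicate 2 or 102 h replicate 3) and 0 to 1 lower (0 without replicate 1 or 2 of either time). Late against early gave 3 to 5 higher (3 without 30 h replicate 2), and 17 to 21 pairs differed.

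Uncalled changes whose sign turned on 1 array ranged from -0.21 to 0.15 for ERG4 at 30 h against 8 h. At 60 h against 30 h the ranges were -0.048 to 0.21 for ERG9, -0.30 to 0.12 for ERG26 and -0.10 to 0.21 for ERG6. At 80 h against 60 h they were -0.060 to 0.085 for ERG7 and -0.23 to 0.080 for ERG28. At 102 h against 80 h they were -0.021 to 0.11 for ERG24, -0.13 to 0.070 for ERG28 and -0.091 to 0.094 for ERG6, and at 102 h against 8 h -0.12 to 0.012 for ERG28. For pairs they were -0.067 to 0.026 (ERG9 minus ERG24), -0.090 to 0.16 (ERG7 minus ERG2), -0.050 to 0.27 (ERG26 minus ERG4), -0.040 to 0.10 (ERG27 minus ERG28) and -0.13 to 0.033 (ERG6 minus ERG4). The number of arrays limits the precision.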

Other observations

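Genes known as markers of low oxygen moved in different directions over the same fermentation. DAN1, a wall mannoprotein gene of anaerobic cells, rose by 0.94 ± 0.32 at 102 h against 8 h (limma adjusted p = 0.027), with signals of 127, 125 and 150.5 at 102 h against 45.5, 88.1 and 84.4 at 8 h. Its rise was 0.63 without the 3 arrays of low 5′ to 3′ ratio. TIR1, another such gene, rose by 0.95 ± 0.36 (adjusted p = 0.044), and its signal was 1929.5 on 8 h replicate 1 against 5081 and 4659 on the other 8 h arrays. Without the 3 arrays of low 5′ to 3′ ratio TIR1 rose by 0.50 (adjusted p = 2.0e-04). ANB1, the hypoxic form of translation factor eIF5A, whose near-identical copy HYP2 the same probes may also read, fell by 1.08 ± 0.17 (adjusted p = 2.2e-04). HEM13, a heme synthesis gene known to be repressed by Rox1, stood at 0.31 ± 0.20 (adjusted p = 0.21), with its lowest mean at 60 h. Of these 4 genes 2 rose and 1 fell, where 21.6% of all probe sets rose and 28.6% fell. The counts of the 4 were the same without the 3 arrays of low 5′ to 3′ ratio. But the calls of DAN1 and TIR1 ended on the authors' scale as deposited (limma adjusted p = 0.091 and 0.067).

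The tested genes outside the 9 whose signals over the 14 arrays ran most like the mean standardised course of the 9 were MOH1 (Pearson r = 0.93), RAD28 (0.93), YLR001C (0.93), FAT3 (0.92) and PRP11 (0.92). These values describe likeness over arrays that share their times and are given with no test. Within the 9, correlation with the mean course was highest for ERG7 and ERG6 (both 0.87) and lowest for ERG27 (-0.24) and ERG28 (-0.01). That mean includes each gene's own course, so these values are not comparable with those of the genes outside the 9.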
